A study of Homo sapiens with 8 samples.

Results

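Wnt signalling begins outside the cell. Wnt ligands are lipid-modified by the acyltransferase PORCN, carried to the cell surface by WLS, and bound by Frizzled (FZD) receptors together with the co-receptors LRP5 and LRP6. Signalling through these receptors stabilises beta-catenin, which acts with transcription factors of the TCF/LEF family, and in the intestinal epithelium it maintains stem cells. R-spondins (RSPO) bind LGR receptors and keep Frizzleds on the surface, whereas secreted Frizzled-related proteins (SFRP) bind the ligands. SW480, an established human colorectal cancer line, carries a truncated APC, so that beta-catenin signalling is active in it without a ligand signal.

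The genes described here are the ligands, receptors and secreted modulators of this pathway. They were chosen by symbol and not by any measured value, though with earlier results of these data known. The rule took every WNT, FZD, SFRP and RSPO gene in the table, with LRP5, LRP6, RYK, ROR1, ROR2, PORCN, WLS, LGR4 and LGR6. The table listed 18656 gene symbols, of which 46 met this rule: 19 ligands, 10 Frizzleds, 4 R-spondins, 4 SFRPs, 3 alternative receptors and 3 pairs made up of the LRP co-receptors, the LGR receptors, and PORCN with WLS. Of the 46 members, 22 reached a TPM (a share of the transcripts of a library, normalised for their length) of 1 in at least 2 libraries and were tested.

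Total RNA was sequenced from SW480 cells in 4 groups of 2 libraries, 8 in all. The control group had received a negative-control siRNA and was labelled 0 h, and the others an siRNA against TCF7L2 for 24, 48 or 72 h. TCF7L2 encodes a TCF/LEF factor, and all cells had been exposed to siRNA and lipid reagent. No control was labelled 24, 48 or 72 h, so silencing of TCF7L2 and time after transfection cannot be told apart, and all comparisons with 0 h share the same 2 control libraries. Per the labels 3 replicates were treated, whereas 2 libraries a group were analysed here. The labels do not say whether these came from separate cultures, so a p-value measures the spread between these libraries only, which may be technical.

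The deposited values of a library summed to between 448107.5 and 485601.5 TPM over the listed genes, except in the second 72 h library, where they summed to 352455.7. Each library was therefore divided by a size factor, its median ratio to the average profile, which was 0.804 for that library and 0.987 to 1.07 for the others. The levels given below are TPM after this scaling unless they are called deposited. TPM keeps no read depth, so the counting error of a level is unknown. TCF7L2 itself stood at 6.48 and 6.99 scaled TPM at 0 h, 5.81 and 5.11 at 24 h, 4.67 and 3.83 at 48 h, then 3.93 and 4.39 at 72 h, so that every siRNA library lay below both controls. Its log2 fold change at 24 h was -0.26 ± 0.11 (SE), which did not reach a limma adjusted p under 0.05 (0.288). At 48 h it was -0.56 ± 0.11 (adjusted p = 0.00725) and at 72 h -0.59 ± 0.11 (adjusted p = 0.00197). All 10 colon epithelial markers examined passed 1 TPM in at least 2 libraries, and their summed level went from 3020 to 3070 at 0 h to between 3920 and 4090 at 72 h. That sum was carried mainly by KRT8, KRT18, KRT19 and EPCAM. CDX2 went from 8.15 and 8.10 to 6.37 and 5.49, CDX1 from 1.41 and 1.57 to 1.31 and 0.82, and VIL1 from 176 and 162 to 173 and 160. The rest of the list was higher at 72 h: CDH17 went from 2.87 and 2.97 to 9.8 and 9.32. CDH1 went from 11.6 and 11.8 to 15.3 and 19.5, and LGALS4 from 0.736 and 1.19 to 2.2 and 1.54. Of 8 fibroblast markers 3 passed, and their sum went from between 10.2 and 12.3 to between 45.0 and 50.6, carried mainly by LUM, while PDGFRA was at 0 in both control libraries. Of 6 immune markers 2 passed (CD68 and LYZ), and their sum went from between 4.12 and 5.28 to between 29 and 33.9. Of 4 endothelial markers 0 passed. The part of these markers in the results below was not tested, and in bulk RNA fewer cells of a type and less RNA per cell cannot be told apart.

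The members differed widely in level. At 0 h the most abundant were LRP5 (31.2 ± 1.57 scaled TPM, mean ± SD, n = 2), LRP6 (28.0 ± 0.578), RYK (21.7 ± 0.0474), WLS (18.5 ± 0.759) and PORCN (13.3 ± 0.217). In this order no member's control libraries overlapped with those of the next. The Frizzleds FZD6 and FZD3 and the ligand WNT11 followed, together with LGR6, at between 5.84 and 8.85 in the 0 h libraries. The range of LGR6 overlapped with those of the other three, and FZD6 lay above FZD3 and WNT11. Among 19 ligands only WNT11, WNT10A and WNT6 reached 1 deposited TPM in all 8 libraries. WNT3 reached it in 7, WNT7A in 4 and WNT5B in 3.

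Of the 46 members 24 stayed below 1 deposited TPM in all 8 libraries and were left out of the fit, 13 of them ligands. Their highest value was 0.98, that of WNT10B in the second 48 h library, and 10 of the 24 never exceeded 0.2. WNT1, a classical canonical ligand, was listed at 0 in every library. The R-spondins RSPO1, RSPO3 and RSPO4 did not exceed 0.1 deposited TPM, so that RSPO2 was the one R-spondin with a level to follow. The receptor tyrosine kinase-like genes ROR1 and ROR2 did not exceed 0.23. WNT16 had deposited values of 0.42 and 0.38 at 0 h, 0.49 and 0.43 at 24 h, 0.85 and 0.94 at 48 h, then 0.73 and 0.82 at 72 h, and FZD7 had 0.09 and 0.14 at 0 h, between 0.10 and 0.17 at 24 and 48 h, and 0.45 and 0.31 at 72 h. For both genes the 72 h libraries lay above the controls. A fit with no filter tested 45 members and called 16 at 72 h, against 17.9% of 17894 genes higher and 17.7% lower. Of the 16, 4 were genes below the filter, all of them higher: FZD7 (log2 change 0.34 ± 0.04, adjusted p = 0.000866), WNT16 (0.42 ± 0.09, 0.00966), WNT2B (0.22 ± 0.06, 0.0299) and SFRP4 (0.25 ± 0.07, 0.0364). At these levels the added 1 TPM holds the log2 change far below the ratio of the levels. WNT2B shares exon sequence with the gene ST7L on the other strand. The sources used here give no strand setting, so reads of both may not have been separated.

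**Figure D1:**
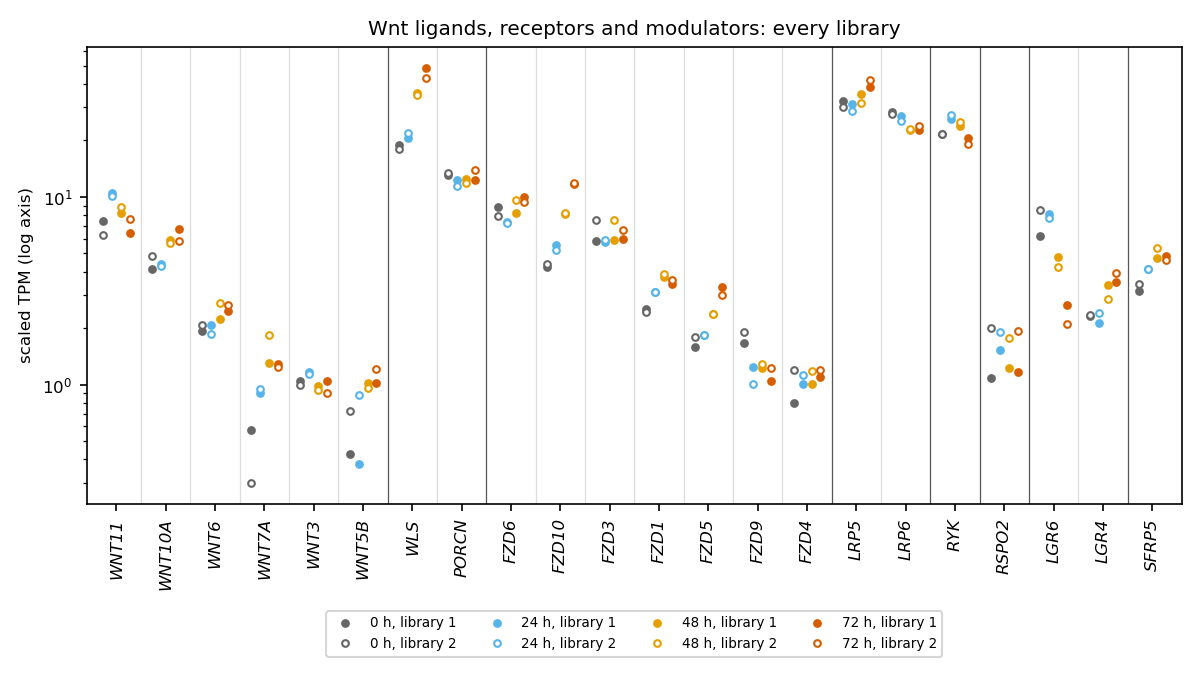
Level of each of the 22 tested members in every library, as scaled TPM on a log axis, grouped by role (dark lines separate roles). Colour gives the time and filled or open symbols the first or second library of a group; WLS and FZD10 climb from 0 to 72 h, LGR6 descends, and LRP5 and LRP6 move apart.

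Promoter sequences give a context for the TCF/LEF question. RefSeq promoter windows (GRCh38.p14) were found for 35 of the 46 members, in 42 windows since some genes have several start sites, and not for FZD10, FZD2, FZD3, FZD6, FZD7, LRP6, RSPO2, SFRP1, WNT10B, WNT11 or WNT7B. The 250 bases before each start were searched on both strands for CTTTGA and CTTTGT, which share the core of the TCF/LEF motif and cannot match at the same place on a strand. A match was found in 4 of the 42 windows (9.52%), and in 22.8% of 35116 windows of all genes. The 4 were in FZD1, PORCN, ROR2 and WNT8B. These are matches of letters in a short window, with no measure of binding, and the enhancers of these genes were not examined. Below are the window of FZD1, the member with a match that also changed, and that of WLS, the member with the smallest p at 72 h, which has none. The capitals in FZD1 mark CTTTGT, which begins at position -224 from the start site. The FZD1 window is chr7:91264183-91264432 on the plus strand, and the WLS window is chr1:68232547-68232796 on the minus strand.

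FZD1: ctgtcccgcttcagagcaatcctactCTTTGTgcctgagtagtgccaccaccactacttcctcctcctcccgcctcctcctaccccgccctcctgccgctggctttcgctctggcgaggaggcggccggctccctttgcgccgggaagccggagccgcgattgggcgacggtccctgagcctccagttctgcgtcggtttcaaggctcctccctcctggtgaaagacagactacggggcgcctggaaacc

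WLS: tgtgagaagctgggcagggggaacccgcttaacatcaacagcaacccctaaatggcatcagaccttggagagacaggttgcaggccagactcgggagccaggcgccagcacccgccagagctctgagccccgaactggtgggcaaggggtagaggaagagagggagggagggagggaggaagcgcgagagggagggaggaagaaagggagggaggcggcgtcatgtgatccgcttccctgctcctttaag

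The comparisons with 0 h ask when and how far these genes moved after the siRNA against TCF7L2, whose own fall was not called at 24 h. At 24 h none of the 22 tested members was called by limma at an adjusted p under 0.05, when 0.647% of 11894 genes were called higher and 0.437% lower. An unadjusted p under 0.05 was reached by 8 of the 22. The share of all genes at that looser threshold was not counted, so these 8 cannot be set against the shares above. At 48 h 6 members were higher and 2 lower, against 12% and 11.5% of all genes. At 72 h 9 of the 22 (40.9%) were higher and 3 (13.6%) lower, against 25.8% and 26.2% of all genes. WNT7A and WNT5B passed the filter only through siRNA libraries, and of the 20 other members 5 were higher and 2 lower at 48 h, and 8 higher and 3 lower at 72 h. On the deposited TPM without scaling, 4 of the 22 were higher and 1 lower at 48 h, and 4 higher and 3 lower at 72 h, all of them among the members called after scaling with the same sign. Of all 11894 genes on that scale 548 were higher and 374 lower at 48 h, and 1253 and 3715 at 72 h. Leaving out the first 0 h library or the second 48 h library lowered the number of members called at 48 h, and that of all genes as well. On the deposited scale the median of all genes at 72 h was shifted by -0.19 (log2), which scaling removed. The median SE of a log2 change was 0.162 on that scale and 0.0912 after scaling, also in comparisons without the 72 h libraries. A call could thus be lost on the deposited TPM with an unchanged log2 change.

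The median log2 change of the 22 members was 0.07 at 24 h, 0.19 at 48 h and 0.22 at 72 h, and that of all 11894 genes was 0.00, -0.01 and 0.00. The scaling itself holds the median of all genes near 0. The 22 include WNT7A and WNT5B, which passed the filter only through siRNA libraries, and the median was not taken without them. All 8 members called at 48 h were called again at 72 h, and FZD9, LGR4, LRP5 and WNT10A were called at 72 h alone. Whether their change at 72 h differed from that at 48 h is a separate test, given with the steps between siRNA times below.

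**Figure D2:**
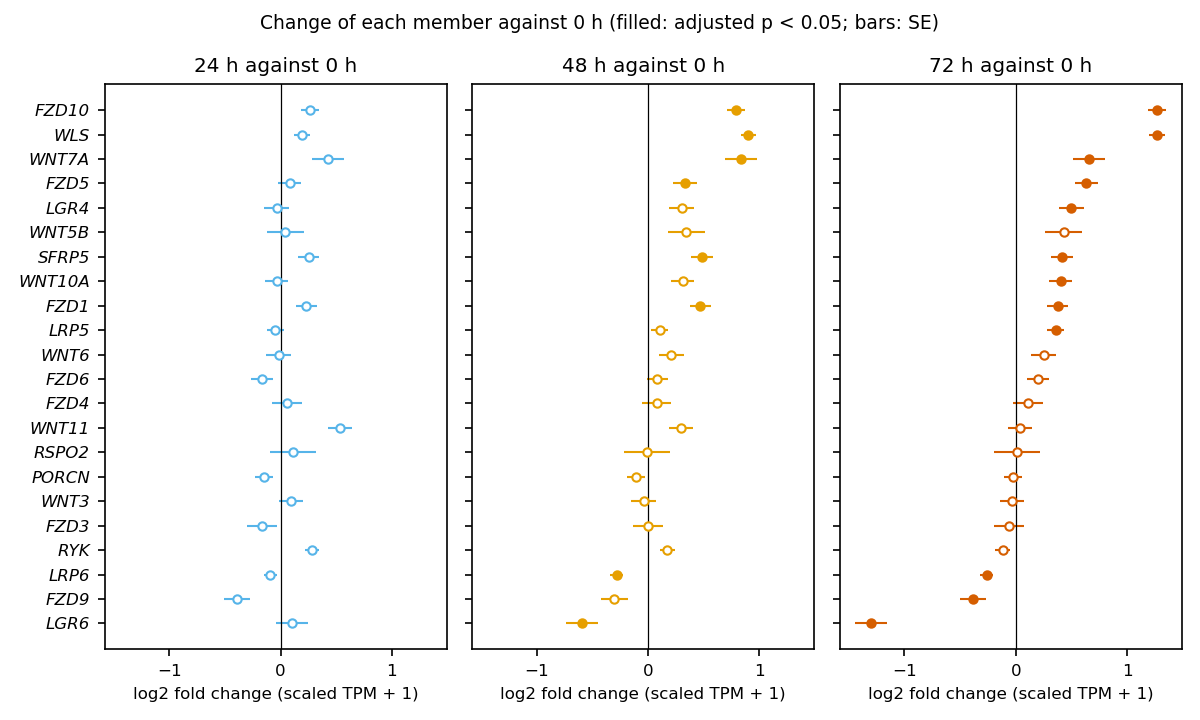
Log2 fold change of each tested member against 0 h at 24, 48 and 72 h, on the log2(scaled TPM + 1) scale, with bars for the SE and filled symbols for an adjusted p under 0.05. No symbol is filled at 24 h, and at 72 h the changes run from -1.30 for LGR6 to 1.27 for FZD10 and WLS.

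Among the genes that make and export ligands, WLS rose and PORCN was not called. WLS, the carrier that brings lipid-modified Wnt proteins to the cell surface, had 19.0 and 17.9 scaled TPM at 0 h, 20.7 and 21.9 at 24 h, 35.6 and 35.1 at 48 h, then 48.8 and 43.3 at 72 h. The ranges of the 4 groups did not overlap, and each time lay above the one before. The log2 change of WLS against 0 h was 0.20 ± 0.07 at 24 h (not called, adjusted p = 0.203), 0.90 ± 0.07 at 48 h (limma adjusted p = 6.76e-05) and 1.27 ± 0.07 at 72 h (adjusted p = 9.99e-07). The 48 and 72 h calls held in all 18 alternatives, with 72 h changes between 1.06 and 1.35. WLS shares exon sequence with the antisense gene GNG12-AS1, and the sources used here give no strand setting, so reads of both may not have been separated.

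PORCN, the enzyme that attaches the lipid, had 13.1 and 13.4 scaled TPM at 0 h, 12.3 and 11.5 at 24 h, 12.5 and 11.9 at 48 h, then 12.3 and 13.9 at 72 h. The 24 and 48 h libraries lay below both controls, with adjusted p of 0.408 and 0.356, and the 72 h libraries overlapped with them. Its log2 change at 72 h was -0.02, with a 95% interval from -0.20 to 0.16. Within a library, which no scaling can affect, WLS stood at 1.45 and 1.34 times the PORCN level at 0 h, 1.68 and 1.91 at 24 h, 2.85 and 2.95 at 48 h, then 3.97 and 3.12 at 72 h.

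Of the 6 tested ligands WNT7A and WNT10A were called and both rose. At 72 h, when both were called, 25.8% of all genes were higher and 26.2% lower. WNT7A had 0.576 and 0.299 scaled TPM at 0 h, 0.899 and 0.952 at 24 h, 1.30 and 1.84 at 48 h, then 1.28 and 1.24 at 72 h, so that all siRNA libraries lay above both controls. Its log2 change was 0.84 ± 0.145 at 48 h (limma adjusted p = 0.00369) and 0.66 ± 0.145 at 72 h (adjusted p = 0.00402). Because WNT7A passed the filter only through its siRNA libraries, its place among the tested genes depended on that rise. Its change also depended on the pseudocount, from 0.20 with 5 to 1.39 with 0.1 at 72 h, and the call held throughout. WNT10A, an epithelial ligand, had 4.14 and 4.85 at 0 h, 4.41 and 4.28 at 24 h, 5.91 and 5.71 at 48 h, then 6.72 and 5.83 at 72 h. It rose by 0.405 ± 0.10 at 72 h (adjusted p = 0.0089). That call was lost on the deposited TPM (adjusted p = 0.281), without the first 0 h library (0.0748) and without the first 72 h library (0.0571). WNT6, which lies next to WNT10A in the genome, had a log2 change of 0.25 ± 0.11 at 72 h (adjusted p = 0.0914).

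WNT11, the most abundant ligand at 0 h and known mainly for signalling that bypasses beta-catenin, followed another course. It had 7.40 and 6.24 scaled TPM at 0 h, 10.5 and 10.1 at 24 h, 8.26 and 8.85 at 48 h, then 6.41 and 7.64 at 72 h. The 24 h libraries were the highest and did not overlap with any other group, while those of 72 h overlapped with the controls. The 24 h log2 change of WNT11, 0.53 ± 0.11, fell just outside the threshold (adjusted p = 0.0545). Over 18 alternatives its adjusted p ranged from 0.0349 to 0.332, and it was called with a minimum TPM of 5 (0.0391) and without the first or the second 72 h library (0.0349 and 0.0353). WNT11 shares exon sequence with an antisense gene. WNT3 and WNT5B were not called at any time. WNT3 stayed between 0.907 and 1.17 scaled TPM in all libraries, and WNT5B had a 72 h change of 0.43 ± 0.17 (adjusted p = 0.0538) and passed the filter only through its 48 and 72 h libraries.

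Among the 10 Frizzleds, 3 rose, 1 fell, 3 were tested and not called, and 3 stayed below the filter. All of these calls stood at 72 h, when 25.8% of all genes were higher and 26.2% lower. FZD10 had the highest log2 change of the tested Frizzleds at 72 h, on the log2(scaled TPM + 1) scale. It had 4.22 and 4.39 scaled TPM at 0 h, 5.53 and 5.22 at 24 h, 8.11 and 8.22 at 48 h, then 11.7 and 11.9 at 72 h, with no overlap between any groups. Its log2 change was 0.27 ± 0.08 at 24 h (not called, adjusted p = 0.144), 0.79 ± 0.08 at 48 h (limma adjusted p = 0.000288) and 1.27 ± 0.08 at 72 h (adjusted p = 2.49e-06). Both calls held in all 18 alternatives, with 72 h changes between 0.855 and 1.44.

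FZD5, a Frizzled of intestinal epithelium, had 1.58 and 1.79 scaled TPM at 0 h, 1.83 and 1.84 at 24 h, 2.37 and 2.38 at 48 h, then 3.31 and 3.02 at 72 h. It rose by 0.64 ± 0.11 at 72 h (adjusted p = 0.000783), a call that held in all 17 alternatives that gave a value. The 48 h change of 0.33 ± 0.11 barely passed (adjusted p = 0.0464) and was lost in 12 of 17. Among these were leaving out either 0 h library (0.215 and 0.0935), either 24 h library (0.0695 and 0.0699) or either 48 h library (0.143 and 0.148), and the replicate block (0.0618). FZD1 had 2.52 and 2.45 at 0 h, 3.10 and 3.10 at 24 h, 3.75 and 3.90 at 48 h, then 3.44 and 3.63 at 72 h, and all its siRNA libraries lay above the controls. Its log2 change was 0.47 ± 0.10 at 48 h (limma adjusted p = 0.00744) and 0.38 ± 0.10 at 72 h (adjusted p = 0.0079). On the deposited TPM both were lost, at 48 h with the same log2 change of 0.47 (adjusted p = 0.0611) and at 72 h with 0.21 (0.308). Without the second 48 h library the 48 h call of FZD1 was lost (0.0509), as was the 72 h call after quantile normalization (0.0519).

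FZD9 went the other way, from 1.67 and 1.90 scaled TPM at 0 h to 1.24 and 1.01 at 24 h, 1.23 and 1.28 at 48 h, then 1.04 and 1.23 at 72 h. All 6 siRNA libraries lay below both controls. It fell by 0.38 ± 0.12 on the log2 scale at 72 h (adjusted p = 0.022). Leaving out the second 0 h library (adjusted p = 0.127) or, separately, the first 72 h library (0.0952) ended the call. FZD6 and FZD3, the leading Frizzleds at 0 h, had 95% intervals of the 72 h log2 change from -0.02 to 0.42 and from -0.37 to 0.25. FZD6 shares exon sequence with the antisense gene BAALC-AS1, and reads of both may not have been separated. FZD4, with an interval from -0.19 to 0.41, shares exon sequence with PRSS23 on the other strand, which went from 4.95 and 6.35 to 13.8 and 14.5 scaled TPM, so its level is uncertain.

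The make-up of the Frizzled pool shifted accordingly. In deposited TPM, FZD10 made up 16.0 and 15.6% of all Frizzled transcripts at 0 h, 20.6 and 19.7% at 24 h, 25.6 and 23.3% at 48 h, then 30.9 and 31.2% at 72 h. FZD6 held 33.4 and 28.0% at 0 h and 26.4 and 24.7% at 72 h, and FZD3 22.1 and 26.9% against 15.8 and 17.5%. FZD10 thus passed from the third place at 0 h to the first at 72 h in both libraries. The ratio of FZD10 to FZD6 was 0.477 and 0.557 at 0 h, 0.755 and 0.714 at 24 h, 0.987 and 0.852 at 48 h, then 1.17 and 1.26 at 72 h. The sum over the 10 Frizzleds was 26.5 and 28.1 scaled TPM at 0 h and 37.9 and 38.3 at 72 h. In deposited TPM it was 28.0 and 30.1 against 39.3 and 30.8, so that the second 72 h library then lay close to the controls.

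**Figure D3:**
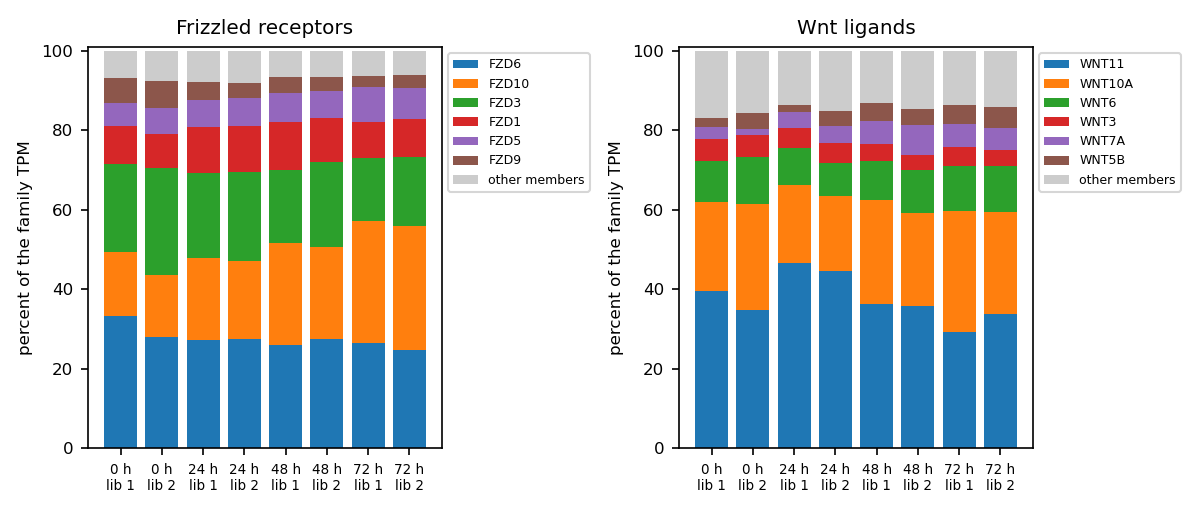
Share of the summed deposited TPM of the 10 Frizzleds (left) and the 19 ligands (right), in percent, for the 8 libraries, with 6 genes of each family in colour and its other members in grey. The FZD10 segment widens from 16.0 and 15.6% at 0 h to 30.9 and 31.2% at 72 h, and WNT11 has its largest share of the ligands at 24 h, 46.7 and 44.5%.

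The co-receptors LRP5 and LRP6, which both bind Wnt and Frizzled, moved in opposite directions. LRP6 had 28.4 and 27.6 scaled TPM at 0 h, 26.9 and 25.5 at 24 h, 22.7 and 22.9 at 48 h, then 22.6 and 23.8 at 72 h, so that the 48 and 72 h libraries lay below all others. It fell by 0.28 ± 0.06 at 48 h (limma adjusted p = 0.00994) and by 0.26 ± 0.06 at 72 h (adjusted p = 0.00544). The 72 h call held in all 18 alternatives. The 48 h call was lost on the deposited TPM, where the log2 change was -0.29 (adjusted p = 0.31), without the first 0 h library (0.0711) and without the first 48 h library (0.055). LRP5 had 32.3 and 30.1 at 0 h, 31.4 and 28.8 at 24 h, 35.3 and 31.8 at 48 h, then 38.4 and 42.0 at 72 h, where both libraries lay above all others. Its log2 change at 72 h was 0.36 ± 0.08 (adjusted p = 0.00343), but 0.14 on the deposited TPM (adjusted p = 0.488). The ratio of LRP5 to LRP6 within a library, free of any scaling, was 1.14 and 1.09 at 0 h, 1.16 and 1.13 at 24 h, 1.55 and 1.39 at 48 h, then 1.70 and 1.77 at 72 h. A near copy of part of LRP5, LRP5L, is listed in the table at 2.28 to 3.21 scaled TPM, and the authors' estimation may have divided some reads between the genes.

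RYK, a receptor with a ligand-binding domain unlike that of the Frizzleds, was the one alternative receptor above the filter. It had 21.7 and 21.6 scaled TPM at 0 h, 25.9 and 27.2 at 24 h, 24.0 and 25.2 at 48 h, then 20.6 and 19.2 at 72 h. The 24 and 48 h libraries lay above the controls and the 72 h libraries below them. None of these differences from 0 h was called (adjusted p = 0.0723, 0.0783 and 0.15).

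The R-spondin receptors LGR6 and LGR4 changed places. LGR5, a further such receptor tested among the other surface regulators, was not called at 72 h (log2 change -0.205 ± 0.145, limma adjusted p = 0.264). LGR6 had 6.21 and 8.54 scaled TPM at 0 h, 8.08 and 7.73 at 24 h, 4.77 and 4.24 at 48 h, then 2.65 and 2.10 at 72 h. The 0 and 24 h libraries overlapped, and those of 48 and 72 h lay below them in turn. LGR6 fell by 0.59 ± 0.14 at 48 h (limma adjusted p = 0.0155) and by 1.30 ± 0.14 at 72 h (adjusted p = 6.34e-05). The 72 h call held in all 18 alternatives, with changes between -1.58 and -0.74. The 48 h call was lost without the second 0 h library (log2 change -0.39, adjusted p = 0.107), without the second 48 h library (0.0922) and with no filter (0.0513). LGR4, its more broadly expressed relative, had 2.33 and 2.34 at 0 h, 2.12 and 2.40 at 24 h, 3.38 and 2.86 at 48 h, then 3.53 and 3.92 at 72 h. It rose by 0.50 ± 0.11 at 72 h (adjusted p = 0.00427), a call that was lost on the deposited TPM (log2 change 0.34, adjusted p = 0.0965). The ratio of LGR6 to LGR4 within a library was 2.66 and 3.65 at 0 h, 3.82 and 3.22 at 24 h, 1.41 and 1.48 at 48 h, then 0.751 and 0.537 at 72 h, so that LGR4 was the higher of the pair at 72 h only.

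Their ligand RSPO2 showed no such course. It had 1.09 and 2.00 scaled TPM at 0 h and 1.17 and 1.93 at 72 h, and the second library of each group was the higher. The 95% interval of its 72 h log2 change, from -0.46 to 0.48, was the widest among the tested members.

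**Figure D4:**
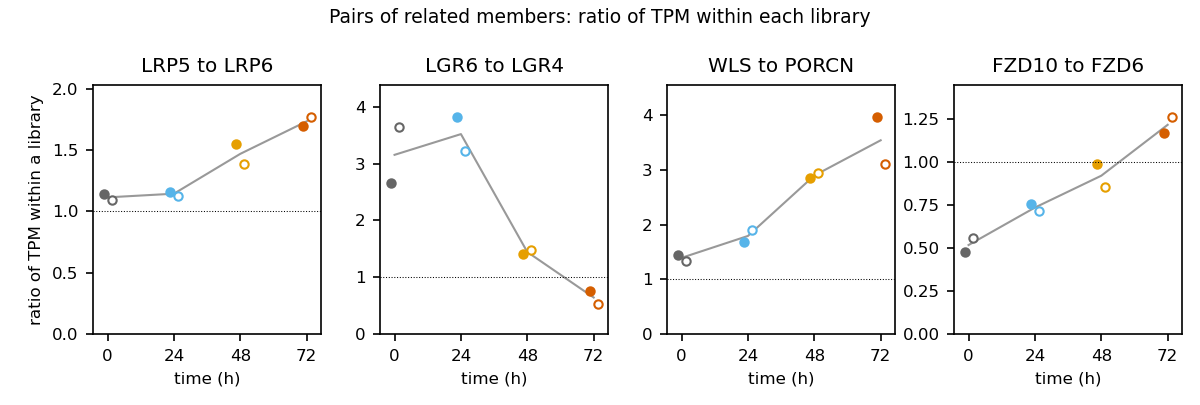
Ratio of deposited TPM within each library for 4 pairs of related genes, against time in hours, with a line through the group means and a dotted line at equality. LRP5 to LRP6, WLS to PORCN and FZD10 to FZD6 climb, and LGR6 to LGR4 falls below 1 at 72 h.

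Of the secreted Frizzled-related proteins only SFRP5 passed the filter. It had 3.17 and 3.44 scaled TPM at 0 h, 4.12 and 4.13 at 24 h, 4.72 and 5.34 at 48 h, then 4.85 and 4.62 at 72 h, and all siRNA libraries lay above the controls. SFRP5 rose by 0.48 ± 0.10 at 48 h (limma adjusted p = 0.00741) and by 0.41 ± 0.10 at 72 h (adjusted p = 0.00581). The 72 h call was lost on the deposited TPM (0.242), and the 48 h call without the first 0 h library (0.0574) or the second 48 h library (0.062). SFRP1, SFRP2 and SFRP4 did not exceed 0.43 deposited TPM.

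The steps between siRNA times ask whether the change at one time differed from that at the time before, and they do not use the 0 h libraries as a reference. From 24 to 48 h 2 members were higher, FZD10 and WLS, and 1 was lower, LGR6, against 7.56% and 6.47% of all genes. From 48 to 72 h FZD10, FZD5, LRP5 and WLS were higher and LGR6 and RYK lower, against 20.5% and 19.4% of all genes. FZD10 and WLS thus rose, and LGR6 fell, in each of these steps. From 48 to 72 h the log2 change was 0.37 ± 0.07 for WLS (adjusted p = 0.00326), 0.49 ± 0.08 for FZD10 (adjusted p = 0.0016) and -0.71 ± 0.14 for LGR6 (adjusted p = 0.00386). On the deposited TPM, where the second 72 h library was low throughout, 0 members were higher from 48 to 72 h and 3 lower. Of all genes on that scale 590 were higher and 2621 lower. Of these 3 members, 2 were also called after scaling with the same sign. Without the second 48 h library fewer members were called in that step, and fewer of all genes as well. For FZD9, LGR4 and WNT10A, called at 72 h and not at 48 h, the step from 48 to 72 h was not called (adjusted p = 0.623, 0.181 and 0.505).

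The rest of the pathway was followed with 5 lists. A list of further extracellular and surface regulators held 28 symbols, of which 27 were in the table and 16 were tested. Of the 16, 1 was higher and 1 lower at 24 h, 6 and 2 at 48 h, then 7 and 6 at 72 h. Of all genes, 0.647% were higher and 0.437% lower at 24 h, 12% and 11.5% at 48 h, then 25.8% and 26.2% at 72 h, the shares beside which the count of each list stands. NOTUM, a secreted enzyme that removes the Wnt lipid, fell from 343 ± 7.74 to 168 ± 0.131 scaled TPM at 72 h (log2 change -1.02 ± 0.04, adjusted p = 1.67e-07). DKK1, an inhibitor that binds LRP5 and LRP6, rose from 16.0 ± 2.06 to 41.7 ± 1.76 (1.33 ± 0.08, adjusted p = 2.39e-06). RNF43, the ubiquitin ligase that removes Frizzleds and is counteracted by R-spondins, rose from 56.8 ± 1.52 to 103 ± 7.92 (0.84 ± 0.06), and APCDD1, a membrane inhibitor, from 246 ± 10.4 to 360 ± 4.54 (0.55 ± 0.05). The median log2 change of this list at 72 h was 0.13.

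Of 9 genes of ligand trafficking, all tested, 0 were called at 24 h, 4 were higher and 0 lower at 48 h, and 1 was higher and 1 lower at 72 h. TMED2 had a change of -0.38 ± 0.045 and TMED5 of 0.35 ± 0.06, while VPS29 and VPS26A of the retromer were not called (adjusted p = 0.0716 and 0.0923). Of 21 tested cytoplasmic transducers 4 were higher and 8 lower at 72 h (25.8% and 26.2% of all genes), with CSNK1A1 at -0.75 ± 0.045, AXIN1 at -0.70 ± 0.08, APC at -0.68 ± 0.10 and DVL1 at -0.28 ± 0.05. The 4 higher were BTRC (0.61 ± 0.12), TNKS2 (0.28 ± 0.08), CSNK1G2 (0.24 ± 0.08) and CTNNB1 (0.14 ± 0.04). At 24 h 0 of these 21 were called and at 48 h 1 was higher and 5 lower. Of 16 tested genes of planar polarity and non-canonical signalling 3 were higher and 6 lower at 72 h, against the same 25.8% and 26.2%. Among the lower were ROCK2 (-0.72 ± 0.05), SCRIB (-0.59 ± 0.07), RAC1 (-0.27 ± 0.05) and CELSR1 (-0.65 ± 0.13). The 3 higher were INTU (0.575 ± 0.16), DAAM2 (0.47 ± 0.11) and RHOA (0.14 ± 0.04). Of 7 tested nuclear factors 3 were higher and 1 lower at 72 h: LEF1 (1.79 ± 0.14), BCL9 (0.78 ± 0.20) and BCL9L (0.51 ± 0.16) rose, and TCF7L2 was the one that fell. The median log2 changes of these 4 lists at 72 h were -0.04, -0.07, -0.17 and 0.07, in the order given, against 0.00 for all genes.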

How the data were processed

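The authors deposited 1 table of TPM per gene symbol and library. The submitters' processing notes name the hg19 build and the tools RSEM, STAR, Trimmomatic, FastQC, SAMtools and Picard, with no role given. The sources used here give no versions, annotation or strand setting. TPM keeps no depth.

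A gene was tested if its deposited TPM reached 1 in at least 2 libraries (11894 of 18656). Each library was divided by its median ratio to the geometric mean profile over kept genes above 0 in all libraries. Limma 3.58.1 (R 4.3.3) was fitted to log2(scaled TPM + 1) of all 8 libraries, using a mean-variance trend (4 residual and 5.41 prior degrees of freedom). Calls are two-sided at a Benjamini-Hochberg adjusted p under 0.05 over all tested genes, and this scale understates changes of low genes. Intervals are at 95%. Scaling was the main choice because earlier results had shown the low listed sum of the second 72 h library. The fit alone was tested on simulated log values, with changes planted only in genes above a set mean level. The filter and the scaling were not part of that test.

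The members, the other lists and the tests were chosen with earlier results of these data known. Values in every library are given for members called against 0 h, and from each other list up to 4 genes with the smallest p at 72 h are named. The higher genes of the cytoplasmic and polarity lists, and LGR5, were named in addition after their values were seen. WNT11, RYK, PORCN, WNT16 and FZD7, and the members below the filter that a fit without it called, were picked for description after their values were seen. Alternatives were other pseudocounts, filters, scalings and variance models, fitting the compared groups without the others, a replicate block, and leaving out each library, where a lone library is assumed to vary like the other groups.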

Additional observations from a re-analysis of the deposited data

Results flagged for a closer look

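For 6 members the change against 0 h differed between successive siRNA times by limma's test of the difference itself. From 24 to 48 h this held for WLS (log2 difference 0.71, adjusted p = 0.000443), FZD10 (0.52, adjusted p = 0.00379) and LGR6 (-0.70, adjusted p = 0.0126). Leaving out a 24 h library (the first, adjusted p = 0.0833, or the second, 0.0553) or the second 48 h library (0.083) ended the LGR6 call.

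From 48 to 72 h it held for FZD10 (0.49, adjusted p = 0.0016), WLS (0.37, adjusted p = 0.00326), LGR6 (-0.71, adjusted p = 0.00386), RYK (-0.29, adjusted p = 0.00609), LRP5 (0.26, adjusted p = 0.0248) and FZD5 (0.30, adjusted p = 0.0443). On the deposited TPM those of FZD10 (adjusted p = 0.17), WLS (0.477), LRP5 (0.85) and FZD5 (0.539) were lost. That of RYK was lost without the second 48 h library (0.0507), and that of LRP5 without the second 48 h library (0.161) or the second 72 h library (0.144). For FZD5 14 of 17 alternatives ended the call, and leaving out any 1 of the 8 libraries gave an adjusted p between 0.0588 and 0.159.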

How the results depend on the processing

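Of 29 calls of members, 12 held in every listed alternative that gave a value and 17 were lost in 1 or more; 0 turned in direction. On the deposited TPM 5 members were called at 48 h against 8 after scaling, 7 at 72 h against 12, and 3 from 48 to 72 h against 6. There 0 of the 3 were higher, and the genes called fell to 55, 922 and 597 at 24 h, 48 h and from 24 to 48 h, against 129, 2797 and 1668. At 72 h and from 48 to 72 h, 4968 and 3211 genes were called, against 6179 and 4751. A minimum TPM of 5 left 1 member called at 24 h and 7 at 72 h, with 212 genes at 24 h and 5201 at 72 h. That filter left FZD1, FZD5, FZD9, LGR4 and WNT7A untested, all of them called at 72 h in the main fit. The other members called at 72 h in the main fit kept their calls. No filter gave 15 genes at 24 h, and a fit without a trend 20, with 6 members from 24 to 48 h against 3. Leaving out 1 library in turn gave 0 to 1 member at 24 h, 4 to 10 at 48 h and 3 to 5 from 48 to 72 h, and 4 to 284 genes at 24 h, 1357 to 3165 at 48 h and 620 to 1957 from 24 to 48 h. Deposited TPM without the second 72 h library, chosen after seeing the data, gave 1, 8 and 11 members at 24, 48 and 72 h, 7 from 24 to 48 h, and 728 genes at 24 h. Of called genes, 59.7, 51.1 and 49.6% were higher at 24, 48 and 72 h after scaling, 45.5, 59.4 and 25.2% as deposited, 49.1, 50.4 and 47.3% after quantile normalization and 33.5, 33.4 and 46.7% with equal listed sums. From 24 to 48 h and from 48 to 72 h they were 53.9 and 51.3% after scaling, and 85.8 and 18.4% as deposited. With the replicate number as a block 7 members were called at 48 h and 13 at 72 h, with 2707 and 6141 genes. Deviations of same-numbered libraries from their group means correlated at -0.0855 to 0.106 over all tested genes. With 2 libraries a group this cannot show whether same-numbered libraries shared a culture or a batch, which the labels do not say. With TPM alone, depth sets no stated limit for the members below the filter.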
